A study of Mus musculus with 19 samples.

Results

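Sorted cells from the dorsal root ganglia (DRGs) of the α9k1-crush group, which the study names as regenerating sensory neurons, were compared with its baseline across all 12629 genes of its expression table, of which 10750 are protein coding. The comparison takes the 4 α9k1-crush and the 5 GFP-naive libraries, 9 of the 19 libraries of the series, chosen by their labels alone. It differs from the baseline by a construct and an injury together, so it was read beside the 2 groups that carry only one of these, α9k1-naive (6 libraries) and GFP-crush (4 libraries). The question is which genes that either treatment alone displaced were back at the GFP-naive level in α9k1-crush and which were still displaced.

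In α9k1-crush, the left cervical DRGs (which hold the cell bodies of sensory neurons) received AAV5-α9-V5 and AAV5-kindlin1-GFP, and their dorsal roots were crushed at the time of injection. GFP-naive DRGs received AAV5-fGFP and no crush, so the baseline is an injected and not an untouched ganglion. α9k1-naive had the integrin vectors without crush, and GFP-crush had the GFP vector with crush. In every group the DRGs were taken 8 weeks later, dissociated, and sorted for GFP by FACS. The GFP and kindlin-1 vectors carry the CMV promoter and the α9 vector the CAG promoter, neither of which is restricted to neurons, and the sort reads the kindlin-1 vector but not the α9 vector. The sample labels name C57BL/6 mice and the genotype a9k1 overexpression, whereas the methods of the study name adult Lewis rats. The sources used here do not say how many animals went into a library, so the p-values measure the spread between these libraries.

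α9 integrin is a receptor for tenascin-C, the matrix glycoprotein that surrounds lesions of the central nervous system, and kindlin-1 is an adaptor that binds the tail of β integrins and activates them. Sensory neurons have a peripheral branch and a central branch that enters the spinal cord through the dorsal root. Cutting the peripheral branch induces a set of transcription factors and growth genes, among them Atf3, Jun and Stat3, whereas cutting the central branch induces far less of it. DRGs also hold satellite glia, Schwann cells and macrophages close to the neurons, and signals of innate immunity such as IL-6 are exchanged between these cells.

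The libraries held 36.4 to 87.6 M read pairs, and 47.5% to 54.1% of reads were aligned to the mouse genome (mm10, which is GRCm38). Between 3.87% and 4.05% of aligned bases differed from that reference in all 19 libraries. The 2 groups compared also differed in library metrics. Ribosomal bases made up 0.0169% to 0.029% for α9k1-crush and 0.110% to 0.153% for GFP-naive, and intronic bases 1.35% to 1.62% against 2.04% to 2.32%. The third principal component of the 48 library metrics lay between -1.91 and -1.08 in α9k1-crush and between -0.17 and 0.98 in GFP-naive. α9k1-naive replicate 4 stood apart from the rest, with a score of 2.14 on this component. The main test holds the first 3 components as covariates, as in the methods of the study, and their part in the group differences cannot be told apart from that of the groups in these libraries. The variance of the difference α9k1-crush minus GFP-naive was 2.51 times the variance within groups with the covariates and 0.45 times without them, and counts are therefore given from both fits.

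**Figure D1:**
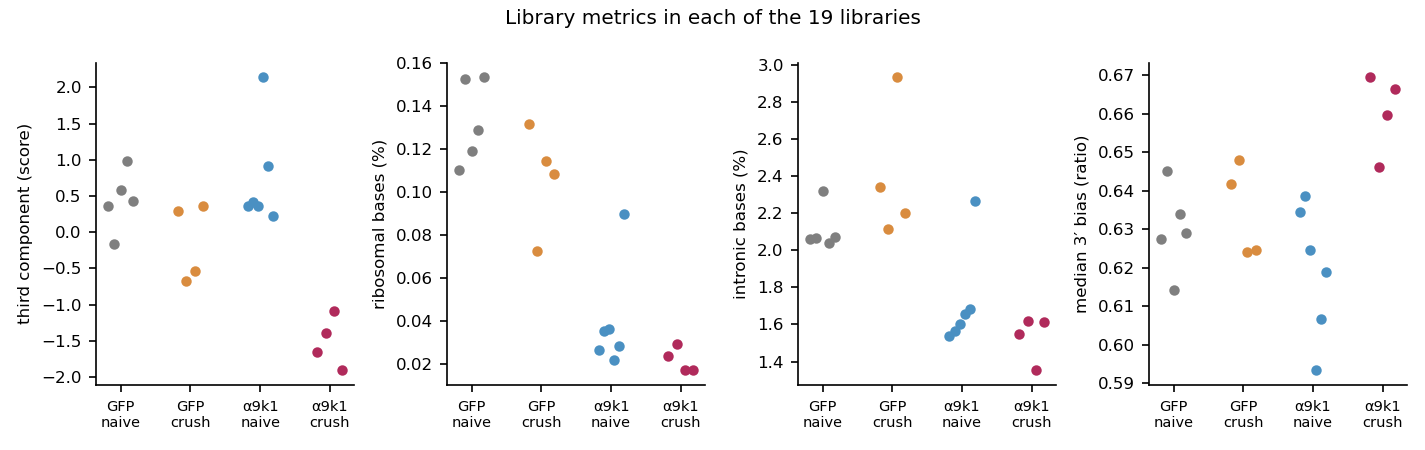
Library metrics in the 19 libraries by group, with 1 point per library: the third principal component of the metrics (score), ribosomal bases (%), intronic bases (%) and the median 3′ bias (ratio). The 4 α9k1-crush libraries lie below all 5 GFP-naive libraries in the first 3 panels and above all of them in the last, and α9k1-naive replicate 4 lies at 2.14 on the component.

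The libraries are labelled as neurons, but markers of other cells were present in all of them. The summed log2 level of 16 markers of satellite glia and Schwann cells had medians of 14.94 in α9k1-crush and 15.97 in GFP-naive, above the 14.41 and 13.82 of 18 general neuron genes, and it was above that of the neuron genes in α9k1-naive (16.55 and 13.24) and GFP-crush (15.39 and 14.32) too. The values below are therefore those of the sorted cells as a mixture.

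The 2 transgenes were checked first. Fermt1, which encodes kindlin-1 (chromosome 2, 132904389 to 132945906), was at 7.70, 6.82, 7.73 and 6.42 on the deposited log2 scale in the 4 α9k1-crush libraries. In the 5 GFP-naive libraries it was at 0.77, 0.55, 0.49, 0.46 and 0.80. Itga9, which encodes α9 integrin (chromosome 9, 118606690 to 118901003), was at 7.51, 6.51, 6.82 and 5.53 in α9k1-crush, and at 2.10, 1.77, 2.40, 2.0 and 2.30 in GFP-naive. All α9k1-crush libraries were thus far above all GFP-naive libraries for both genes, as the group labels imply. The fitted log2 fold change (log2FC, the difference between groups at equal covariates) was 6.45 for Fermt1 (standard error 0.53, limma adjusted p = 5.27e-05) and 5.24 for Itga9 (standard error 1.01, adjusted p = 0.0192).

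At a Benjamini-Hochberg adjusted p under 0.1 in limma, called from here on, 173 genes were higher in α9k1-crush than in GFP-naive (1.37% of the genes tested) and 234 were lower (1.85%), 407 in all (3.22%). A fit to the 9 libraries of the 2 groups alone called 0 higher and 0 lower genes by limma, with 761 at an unadjusted p under 0.05, and the fit with a replicate block called 32 and 10. The libraries of the 2 groups did not overlap for 355 of these 407 genes, beside 43% of all genes. Without covariates, 3429 genes were higher (27.2%) and 4097 lower (32.4%), and 373 of the 407 genes were called in the same direction. Leaving out each of the 19 libraries in turn kept 82 of the 407 calls in every fit, and 81 of them, 51 higher and 30 lower, were also called without covariates. Leaving out α9k1-naive replicate 4 alone took the counts to 82 higher and 52 lower genes, so for each gene below the number of these 19 fits that called it is given where it fell short of all. Over all genes the median log2FC was -0.05. These are levels in RNA of sorted cells, in which fewer cells of a type and less RNA per cell cannot be told apart.

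**Figure D2:**
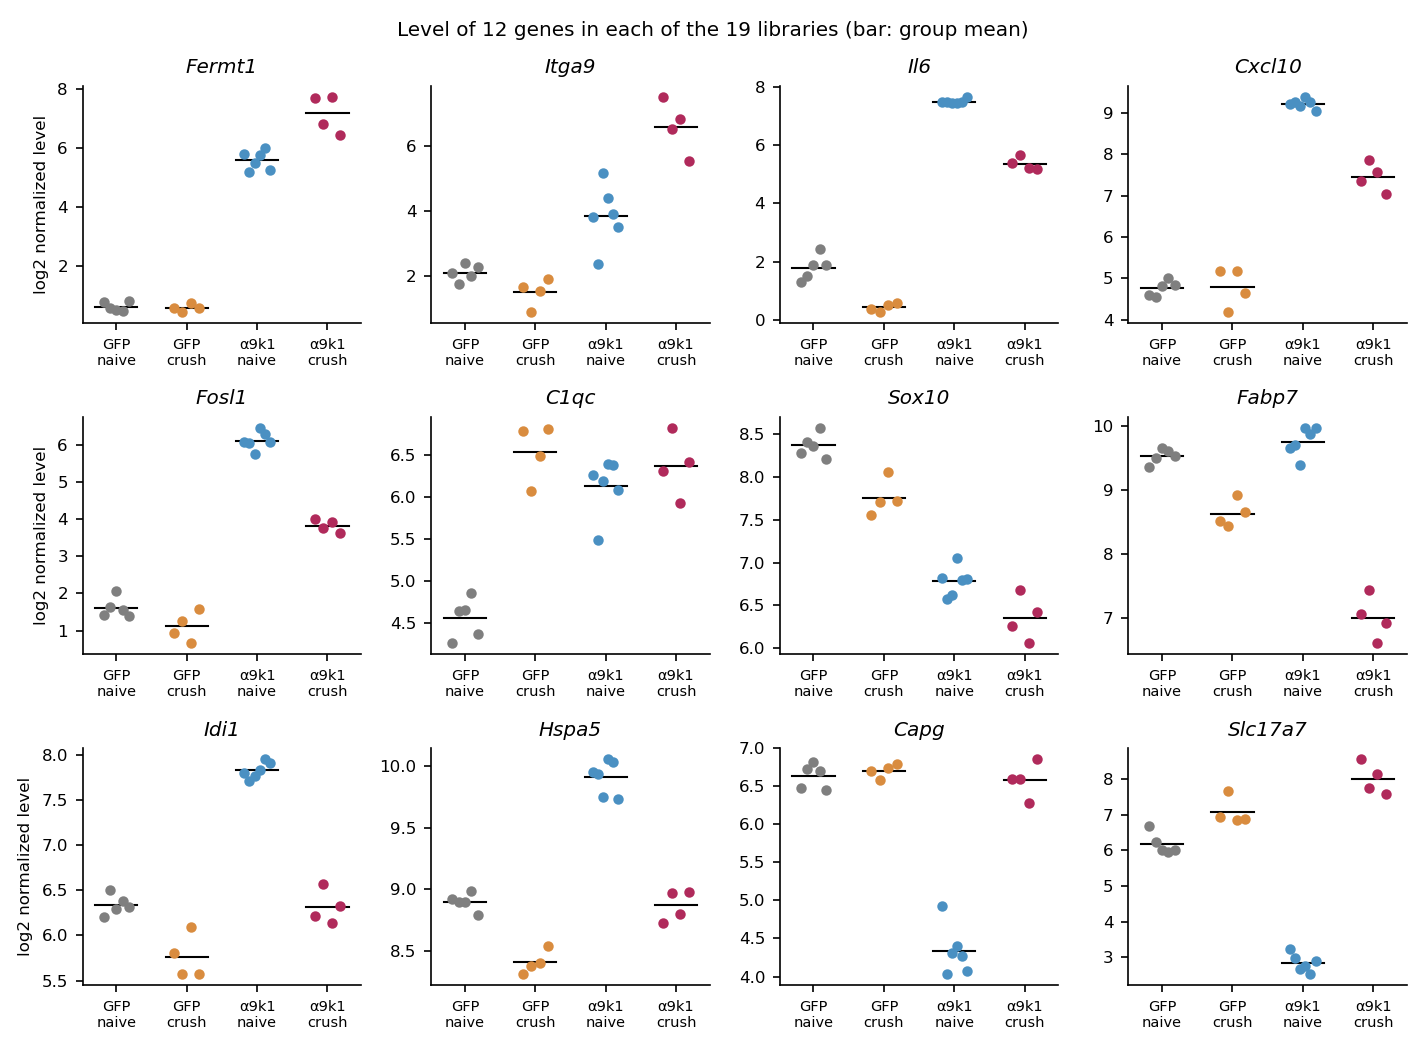
Level (log2, as deposited) of 12 genes in each of the 19 libraries, grouped by treatment, with 1 point per library and a bar at the group mean. Il6, Cxcl10, Fosl1 and C1qc stay above GFP-naive in α9k1-crush, Sox10 and Fabp7 lie below it, Idi1 and Hspa5 rise in α9k1-naive and are at the GFP-naive level in α9k1-crush, Capg falls in α9k1-naive and is back at that level, and Slc17a7 is low in α9k1-naive and above GFP-naive in α9k1-crush.

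Cytokines, chemokines and the feedback inhibitors of NF-kB signalling made up the list with the largest median among the 30 gene lists described. Of 24 measured members, 14 were higher in α9k1-crush and 0 were lower, with a median log2FC of 1.84 beside -0.05 over all genes. Without covariates, 21 were higher and 1 was lower. Over all genes, 1.37% were higher and 1.85% lower, against 27.2% and 32.4% without covariates. The promoters of 4 of the 14 are shown, as NF-kB and AP-1 are the factors best known for driving these genes. The stretches are the 250 bases before the transcription start in the RefSeq table for GRCm38.p6, of the mouse and therefore not of the animal that the study's methods name, written 5′ to 3′ on the strand of the gene. Capitals mark matches on either strand to the κB letters GGGNNNTTCC or to the AP-1 letters TGANTCA.
Il6, chr5:30012864-30013113, plus strand: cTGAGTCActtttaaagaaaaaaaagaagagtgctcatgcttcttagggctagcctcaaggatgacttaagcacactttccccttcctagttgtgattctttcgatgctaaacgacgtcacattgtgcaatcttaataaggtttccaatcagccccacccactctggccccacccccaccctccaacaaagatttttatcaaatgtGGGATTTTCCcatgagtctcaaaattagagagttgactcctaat
Cxcl10, chr5:92348890-92349139, minus strand: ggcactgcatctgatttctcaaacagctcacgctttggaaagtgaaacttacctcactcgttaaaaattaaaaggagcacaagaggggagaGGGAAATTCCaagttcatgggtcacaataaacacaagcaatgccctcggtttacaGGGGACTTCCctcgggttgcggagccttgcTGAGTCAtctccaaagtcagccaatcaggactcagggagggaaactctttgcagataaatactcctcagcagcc
Nfkbia, chr12:55492648-55492897, minus strand: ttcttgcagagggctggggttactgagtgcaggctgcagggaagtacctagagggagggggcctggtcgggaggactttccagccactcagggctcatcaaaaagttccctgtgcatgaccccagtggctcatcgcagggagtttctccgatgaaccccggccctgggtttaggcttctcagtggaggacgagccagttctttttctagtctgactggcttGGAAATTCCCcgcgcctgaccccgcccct
Cxcl1, chr5:90890995-90891244, plus strand: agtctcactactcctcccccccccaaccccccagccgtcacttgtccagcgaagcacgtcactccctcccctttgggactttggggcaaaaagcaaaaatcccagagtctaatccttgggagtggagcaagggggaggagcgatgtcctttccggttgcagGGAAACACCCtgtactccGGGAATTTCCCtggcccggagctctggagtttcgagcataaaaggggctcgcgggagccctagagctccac
The κB match of Il6 begins 44 bases before the start and that of Nfkbia 29 bases before it. Cxcl10 has 2 κB matches, which begin 159 and 104 bases before the start, and an AP-1 match at 74, and Cxcl1 has 3 κB matches, the last 2 of which overlap.

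Il6, which encodes interleukin-6, a ligand of the gp130 receptor, was at 5.38, 5.67, 5.22 and 5.19 in α9k1-crush and at 1.29, 1.49, 1.87, 2.43 and 1.89 in GFP-naive. Every α9k1-crush library was above every baseline library, and the log2FC was 4.27 (standard error 0.39, limma adjusted p = 9.77e-05). The α9k1-naive mean was 7.50 ± 0.09 (SD, n = 6), and the GFP-crush mean was 0.43 ± 0.14 (n = 4). Il6 therefore fell from α9k1-naive to α9k1-crush (log2FC -1.56, adjusted p = 0.0199) without reaching the baseline, and it had been below the baseline after crush alone (-1.44, adjusted p = 0.00041). Il1b, which encodes the inflammasome product interleukin-1β, was at 6.80, 7.52, 7.41 and 7.58 in α9k1-crush. It was at 0.76, 1.82, 2.20, 0.96 and 2.52 in GFP-naive. Its log2FC of 6.20 (standard error 0.97, adjusted p = 0.00672) was the second highest of the non-overlapping called genes, after Fermt1.

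The chemokine Cxcl10, a T cell attractant induced by interferon, was at 7.35, 7.86, 7.58 and 7.05 in α9k1-crush and between 4.56 and 5.01 in GFP-naive (log2FC 3.39, standard error 0.41, limma adjusted p = 0.00214). Ccl2, which attracts monocytes, was at 9.97, 10.25, 9.80 and 10.07 against 8.13 to 8.41 (log2FC 2.04, adjusted p = 0.00504). The groups did not overlap for either gene, and both were lower than in α9k1-naive, where the means were 9.22 ± 0.11 and 11.99 ± 0.12 (n = 6), although only the step for Ccl2 was called (log2FC -1.87, adjusted p = 0.00239, against -1.12, adjusted p = 0.102, for Cxcl10). Cxcl13, a B cell attractant, was at 8.06, 8.46, 7.44 and 7.69 against 3.88 to 4.81 (log2FC 4.41, adjusted p = 0.00252) and had means of 8.31 ± 0.47 (n = 4) in GFP-crush and 7.78 ± 0.37 (n = 6) in α9k1-naive. Nos2, the inducible nitric oxide synthase, was at 4.82, 4.75, 5.05 and 4.65 in α9k1-crush. In GFP-naive it was at 0.39, 0.23, 0.29, 1.06 and 1.32 (log2FC 4.87, adjusted p = 0.00818). Ccl7 (log2FC 2.72, adjusted p = 0.0204) and Cxcl1 (2.0, adjusted p = 0.0435), which attract monocytes and neutrophils, were each called in 17 of the 19 leave-one-out fits.

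The inhibitors of these pathways were higher too. Nfkbia, which encodes IκBα, the cytoplasmic inhibitor of NF-kB, was at 8.32, 8.74, 8.16 and 8.55 in α9k1-crush and at 7.17, 7.29, 7.51, 7.41 and 7.13 in GFP-naive (log2FC 1.78, standard error 0.23, limma adjusted p = 0.00247). Tnfaip3, the deubiquitinating enzyme A20, was at 4.23, 4.23, 3.98 and 3.84 against 1.15 to 2.31 (log2FC 2.87, adjusted p = 0.00272). Socs3, which shuts off gp130 signalling, was at 9.64, 10.16, 9.54 and 9.83 against 8.23 to 8.55 (log2FC 1.95, adjusted p = 0.00652). For none of the 3 genes did the groups overlap. The adhesion molecules Icam1 (log2FC 1.74, adjusted p = 0.00641) and Vcam1 (1.72, adjusted p = 0.0184, 18 of 19 fits) were also higher. All 14 called members had been called higher in α9k1-naive as well, and all 14 were still displaced without covariates.

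Over the measured genes, 8366 of 12628 symbols had a promoter window in the RefSeq table (10907 windows of 250 bases before to 50 after the start, and windows of the same gene can overlap). The κB letters were found in 5.92% of all windows, in 13.7% of the 153 windows of genes still displaced upward from α9k1-naive, and in 10 of the 16 windows of the cytokine list. The AP-1 letters were found in 5.16% of all windows and in 18.3% and 12.2% of the windows of genes that were still displaced upward and that returned from above, respectively. These shares describe letters in a window and are not evidence of binding, and the 2 letter strings do not overlap each other in the promoters shown.

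Of 23 measured interferon response genes, 9 were higher and 1 was lower (median log2FC 0.65, and 18 higher and 1 lower without covariates). The shares of all genes were 1.37% higher and 1.85% lower, and 27.2% and 32.4% without covariates. Ifit2, which blocks translation of viral RNA, was at 5.87, 6.18, 6.16 and 5.76 in α9k1-crush and at 3.29, 3.23, 3.04, 3.65 and 2.86 in GFP-naive (log2FC 2.75, standard error 0.36, limma adjusted p = 0.00247). Mb21d1, the DNA sensor cGAS, was at 3.76, 4.34, 3.74 and 3.53 against 1.04 to 1.68 (log2FC 3.04, adjusted p = 0.00247). Irf1, a transcription factor of the interferon response, was at 8.27, 8.31, 8.09 and 8.24 against 6.55 to 6.97 (log2FC 1.74, adjusted p = 0.00247). In all 3 the lowest α9k1-crush library lay above the highest GFP-naive library. Rsad2, which encodes viperin, followed the same order (log2FC 2.43, adjusted p = 0.0147), with α9k1-crush replicate 4 at 4.38 and the other libraries of its group at 5.16 to 5.20. Ifit3 (2.20, adjusted p = 0.0234) and Gbp2, an interferon-induced GTPase (2.01, adjusted p = 0.0212), were each called in 17 of 19 fits.

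Bst2, which encodes tetherin and is usually induced by interferon, moved the other way. It was at 2.26, 2.66, 2.38 and 2.22 in α9k1-crush and at 3.78, 3.59, 3.58, 3.71 and 4.15 in GFP-naive (log2FC -2.08, standard error 0.38, limma adjusted p = 0.0145), without overlap, and it had also been lower in α9k1-naive (-1.36, adjusted p = 0.00014). Isg15, an interferon-induced ubiquitin-like protein, was higher in α9k1-naive (1.09, adjusted p = 0.00011) and overlapped with the baseline in α9k1-crush, at 6.02 ± 0.17 (n = 4) against 6.09 ± 0.20 (n = 5).

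Among 19 regeneration transcription factors, 6 were higher and 0 lower (median log2FC 0.72, and 11 higher and 3 lower without covariates). These counts stand beside 1.37% of all genes higher and 1.85% lower, and 27.2% and 32.4% without covariates. Fosl1, an AP-1 subunit, was at 3.99, 3.75, 3.92 and 3.62 in α9k1-crush and at 1.43, 1.63, 2.06, 1.55 and 1.40 in GFP-naive (log2FC 2.79, standard error 0.40, limma adjusted p = 0.00348). Myc was at 6.65, 7.40, 6.77 and 7.06 against 5.07 to 5.44 (log2FC 2.16, adjusted p = 0.019, 18 of 19 fits). Atf3, the factor most widely used to mark injured sensory neurons, was at 8.55, 9.02, 8.25 and 8.73 against 6.94 to 7.23 (log2FC 1.57, adjusted p = 0.0254, 17 of 19 fits). The groups did not overlap for these 3 genes. Cebpb, a factor induced by IL-6 (1.81, adjusted p = 0.0119), the basic helix-loop-helix factor Bhlhe40 (1.32, adjusted p = 0.0496, 17 of 19 fits) and Klf6, a growth-associated zinc finger factor (1.15, adjusted p = 0.0813, 8 of 19 fits), were also higher. Of 20 immediate early genes, 2 were higher (8 higher and 6 lower without covariates), Fosl2 (2.46, adjusted p = 0.00247) and Zfp36, which destabilizes cytokine mRNAs (1.85, adjusted p = 0.0142). Of 27 regeneration effectors and neuropeptides, 2 were higher (9 higher and 4 lower without covariates, where 27.2% of all genes were higher and 32.4% lower), Il6 and the urokinase receptor Plaur (1.54, adjusted p = 0.0623, 12 of 19 fits).

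Macrophage markers moved with these genes. Of 13 measured, 7 were higher and 0 lower with a median log2FC of 1.66, and all 13 were higher without covariates, beside 1.37% and 27.2% of all genes higher in the 2 fits. Their summed level was 10.90 to 11.63 on the log2 scale for α9k1-crush and 9.19 to 9.78 for GFP-naive, beside 10.71 to 11.23 for α9k1-naive and 11.28 to 11.92 for GFP-crush. C1qc, a chain of the first complement component, was at 6.31, 6.82, 5.93 and 6.41 against 4.26, 4.64, 4.66, 4.86 and 4.37 (log2FC 2.93, standard error 0.42, limma adjusted p = 0.00368). Cd68, a lysosomal protein of phagocytes, was at 5.44, 6.16, 5.04 and 5.55 against 2.94 to 4.34 (log2FC 2.99, adjusted p = 0.015). Both were without overlap, and C1qa (2.54) and C1qb (2.58) were called in all 19 fits as well. Csf1r, the receptor that macrophages need to survive, had a log2FC of 1.22 (adjusted p = 0.45), but its libraries did not overlap, at 3.95 to 4.62 against 2.72 to 3.32, and it was called without covariates (adjusted p = 0.0012). For Ptprc (CD45), which marks all leukocytes, the log2FC was 0.18 (adjusted p = 0.898), and it was called higher without covariates (adjusted p = 0.0044). Ptprc was at 2.74 to 3.29 in α9k1-crush and at 2.04 to 2.77 in GFP-naive, a low level in both groups. Another 5 listed markers, Cx3cr1, Itgam, Mrc1, Trem2 and Cd163, have no values here. None of the 13 measured markers was at 0 as a group mean, and the part of macrophage RNA in the cytokine and interferon genes was not tested.

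Further named genes were also higher. Cd74, the invariant chain of class II MHC, was at 10.13, 10.86, 10.33 and 10.59 in α9k1-crush and at 8.48, 8.84, 8.54, 8.63 and 8.17 in GFP-naive (log2FC 2.13, standard error 0.42, limma adjusted p = 0.0215). Psmb8 (1.03, adjusted p = 0.0532, 16 of 19 fits) and Psmb9 (1.05, adjusted p = 0.0726, 12 of 19 fits), the subunits of the immunoproteasome that cuts peptides for class I MHC, were the 2 members called of 34 proteasome subunits. Neither group overlapped for these 3 genes. Without covariates, 18 of the 34 proteasome subunits were called higher and 4 lower, so calls were not limited to Psmb8 and Psmb9 in that fit. Beside these counts, 1.37% of all genes were higher and 1.85% lower with covariates, and 27.2% and 32.4% without. Dusp2, a phosphatase that inactivates MAP kinases, was at 5.12, 5.06, 4.76 and 5.33 against 0.16 to 2.20 (log2FC 4.29, adjusted p = 0.00681). The macrophage elastase Mmp12 was at 4.19, 2.90, 3.42 and 4.51 against 0.54 to 1.45 (log2FC 4.29, adjusted p = 0.0632, 12 of 19 fits).

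The genes that were lower included markers of glia. Of 16 markers of satellite glia and Schwann cells, 0 were higher and 3 lower (median log2FC -0.14, and 1 higher and 9 lower without covariates), beside 1.85% of all genes lower with covariates and 32.4% without. Sox10, the transcription factor of the glial lineage, was at 6.26, 6.68, 6.06 and 6.42 in α9k1-crush and at 8.28, 8.41, 8.36, 8.57 and 8.21 in GFP-naive (log2FC -1.53, standard error 0.30, limma adjusted p = 0.0208). Fabp7, a fatty acid binding protein of satellite glia, was at 7.06, 7.45, 6.61 and 6.93 against 9.37, 9.51, 9.66, 9.62 and 9.54 (log2FC -1.74, standard error 0.28, adjusted p = 0.007). Kcnj10, their inward rectifier potassium channel, was at 2.30 to 2.78 against 4.05 to 4.42 (log2FC -1.32, adjusted p = 0.0541, 14 of 19 fits). The 2 groups were apart for all 3 genes. In α9k1-naive, Sox10 was lower as well (6.78 ± 0.17, n = 6, log2FC -1.45, adjusted p = 9.91e-06). Fabp7 was slightly above the baseline there (9.77 ± 0.23, log2FC 0.54, adjusted p = 0.014), although not without covariates. Kcnj10 was at 3.83 ± 0.27 (log2FC 0.00, adjusted p = 0.99) and was called lower there without covariates. The summed level of the glial markers was 14.55 to 15.22 for α9k1-crush and 15.83 to 16.20 for GFP-naive. That of the endothelial and fibroblast markers was 8.06 to 8.59 against 9.63 to 9.95, although 0 of the 11 were called with covariates (10 lower without them), and that of the neuron genes was 14.10 to 14.52 against 13.60 to 13.90.

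Immunoglobulin light chain sequence had the lowest log2FC of the named genes. Igkv1-35, a variable segment, was at 0.27, 0.36, 0.88 and 0.30 in α9k1-crush and at 7.84, 4.52, 5.19, 5.78 and 4.61 in GFP-naive (log2FC -5.63, standard error 1.08, limma adjusted p = 0.0187, 18 of 19 fits). The constant segment Igkc was at 2.85 to 3.64 against 6.91 to 9.22, but its log2FC of -5.40 had a standard error of 2.05 and was not called (adjusted p = 0.232). Both segments are products of B cells and plasma cells and not of neurons. The summed level of the 5 lymphocyte markers, which include Igkc, was 7.26 to 9.28 in GFP-naive and 5.21 to 6.00 in α9k1-crush, with 0 of the 5 called.

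Genes that neurons or several cell types express were also among the lower ones. Arhgap15, a GTPase-activating protein for Rac, was at 2.37, 2.76, 2.65 and 2.48 in α9k1-crush and at 4.63, 4.28, 4.13, 4.41 and 4.80 in GFP-naive (log2FC -2.94, standard error 0.40, limma adjusted p = 0.00252). Metrn, which encodes meteorin, a secreted factor of glia and progenitors that promotes neurite growth, was at 2.93, 3.53, 2.20 and 3.04 against 4.95, 5.42, 5.12, 5.29 and 5.31 (log2FC -2.61, adjusted p = 0.0187). Grin2b, a subunit of NMDA receptors, was at 2.41, 2.80, 1.04 and 2.69 against 4.82 to 5.66 (log2FC -2.35, adjusted p = 0.0339, 18 of 19 fits). No library of the one group reached the range of the other in any of the 3. Cntfr, the receptor subunit for ciliary neurotrophic factor, was at 2.44 to 2.54 against 3.33 to 4.78 (log2FC -2.10, adjusted p = 0.0545, 17 of 19 fits) and was the only member called of 14 neurotrophic factor and gp130 receptors, beside 3.22% of all genes. Without covariates, 6 of the 14 were higher and 5 lower, beside 27.2% and 32.4% of all genes. Fign, which encodes the microtubule-severing enzyme fidgetin (-2.58, adjusted p = 0.05, 16 of 19 fits), and Stx7, a syntaxin of late endosomes (-2.43, adjusted p = 0.0254, 18 of 19 fits), were lower without overlap. Txnip, an inhibitor of thioredoxin, was lower (-1.57, adjusted p = 0.0654, 10 of 19 fits) but less so than in α9k1-naive, where its mean was 2.66 ± 0.18 (n = 6) against 4.30 ± 0.41 for α9k1-crush (n = 4) and 6.22 ± 0.26 for GFP-naive (n = 5).

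Of 77 cytosolic ribosomal protein genes, 0 were higher and 4 lower, with a median log2FC of -0.42, and 72 were lower without covariates. Over all genes, 1.85% were lower with covariates and 32.4% without. Rpl39 was at 4.08, 3.62, 3.32 and 3.79 against 5.14, 4.96, 5.27, 4.79 and 5.07 (log2FC -1.48, standard error 0.24, limma adjusted p = 0.00725). Rps28 was at 3.05 to 3.25 against 3.86 to 4.74 (log2FC -2.06, adjusted p = 0.0263). Both were apart and were called in all 19 fits, whereas Rpl9 was called in 2 of them (-1.23, adjusted p = 0.0934). Ribosomal protein genes have many near-identical pseudogenes, between which reads can be split, and the share of ribosomal bases moved in the same direction between the groups, whose part was not tested.

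Both single treatments share the GFP-naive libraries with the comparison above, so the following counts describe where genes lay and are not independent of it. In α9k1-naive, 1445 genes were higher (11.4% of the genes tested) and 2224 lower (17.6%) than in GFP-naive. Of these 3669 genes, 269 were called in the same direction in α9k1-crush (153 higher and 116 lower) and were still displaced. A gene was counted as returned when it was called in the opposite direction from α9k1-naive to α9k1-crush, was not called against GFP-naive, and had a 95% interval of the distance left within 1 log2 unit on either side of 0. This held for 211 genes, 96 from above and 115 from below. A further 28 were called on the opposite side of the baseline, and 3161 were unresolved. Of the unresolved genes, 505 had a called step back but a wider interval, and 2656 had no called step back, among them 1121 with an interval within the limit. Over all genes, 40.9% had an interval that narrow.

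Without covariates the division was different, with 3093 genes still displaced, 1248 returned, 837 on the opposite side and 635 unresolved. Of the 269 genes still displaced, 239 were so in both fits. Of the 211 returned genes, 80 were returned in both, whereas 82 lay on the opposite side and 36 were still displaced without covariates, and for 95 of the 211 (45%, beside 43% of all genes) the deposited values of the 2 groups did not overlap. Across the 19 leave-one-out fits, 65 genes were still displaced in all and 19 were returned in all. In the crush direction, GFP-crush had 933 genes higher (7.39%) and 1984 lower (15.7%) than GFP-naive. Of these, 231 were still displaced in α9k1-crush, 80 higher and 151 lower, 6 had returned, 36 were on the opposite side and 2644 were unresolved. The number of genes still displaced from both starting points was 137.

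**Figure D3:**
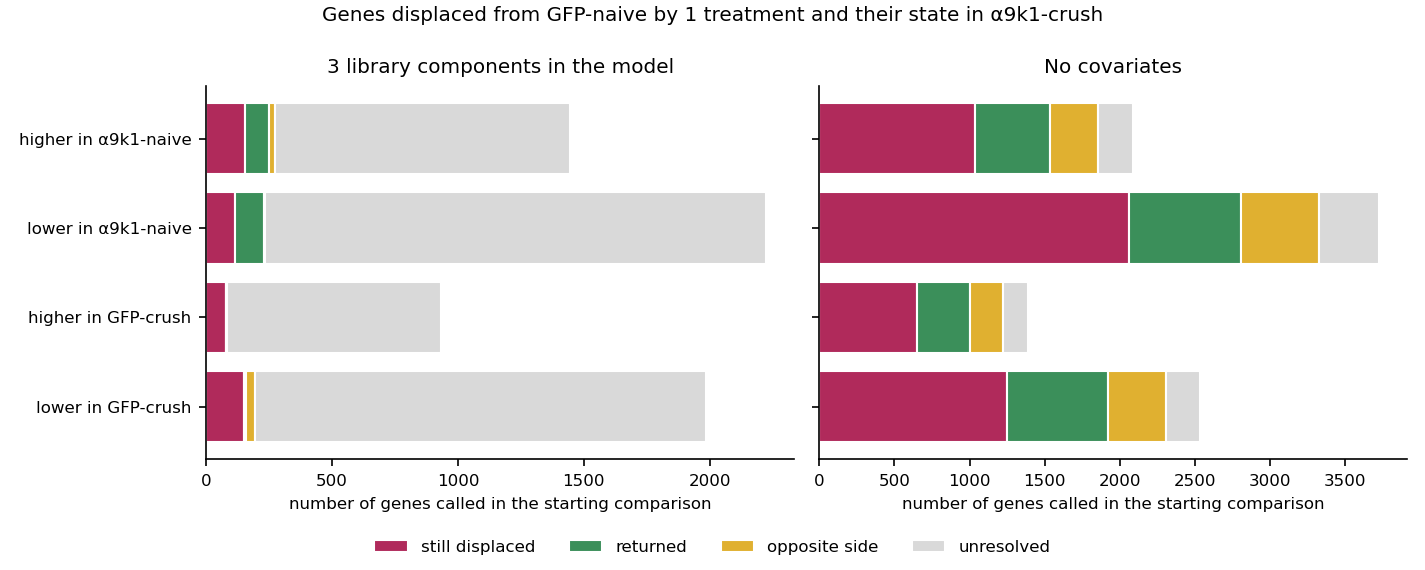
Number of genes called against GFP-naive in α9k1-naive or in GFP-crush, higher or lower, divided by their state in α9k1-crush (still displaced, returned, opposite side of the baseline, unresolved), with covariates on the left and without on the right. With covariates most genes are unresolved (3161 of those from α9k1-naive), and without covariates still displaced genes are the largest class (3093).

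The genes that returned from α9k1-naive included 9 of the 24 cholesterol synthesis genes, beside 1.67% of all genes. Of the 24, 19 had been called in α9k1-naive, 18 of them higher, and 10 were unresolved. Over all genes, 211 of the 3669 called in α9k1-naive returned. Of the 24, 0 were called in α9k1-crush in either direction (median log2FC -0.15), against 3 higher and 15 lower without covariates. The promoter of Hmgcs1, the synthase that makes HMG-CoA, is shown because it is a textbook target of the sterol-regulated factor SREBP-2. It gives the same 250 bases before the start in GRCm38.p6, and capitals mark a match to the sterol element letters TCACNCCAC, 137 bases before the start.
Hmgcs1, chr13:119690101-119690350, plus strand: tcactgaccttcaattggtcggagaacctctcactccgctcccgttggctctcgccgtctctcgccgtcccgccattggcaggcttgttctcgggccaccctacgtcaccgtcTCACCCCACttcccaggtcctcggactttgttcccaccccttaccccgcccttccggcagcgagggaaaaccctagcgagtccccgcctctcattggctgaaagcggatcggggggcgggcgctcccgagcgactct
The letters were found in 1.16% of all windows, in 1 of the 20 windows of the cholesterol list, and in 1.22% of the windows of genes that returned from above.

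Idi1, the isomerase of isopentenyl diphosphate, was at 6.22, 6.57, 6.14 and 6.33 in α9k1-crush and at 6.20, 6.50, 6.29, 6.38 and 6.32 in GFP-naive, beside 7.83 ± 0.09 (n = 6) in α9k1-naive. The groups interleaved, the step from α9k1-naive was called (log2FC -1.36, limma adjusted p = 0.00447), and the distance left was 0.29 with a 95% interval of -0.23 to 0.82. Idi1 was returned in all 19 leave-one-out fits and without covariates. Hmgcs1 was at 8.51, 8.80, 8.46 and 8.43 against 8.86 to 9.12, so its deposited values lay below the baseline without overlap although the fitted distance was -0.35 (interval -0.87 to 0.17). Cyp51, a demethylase of lanosterol, was at 8.59 ± 0.28 against 9.17 ± 0.14 in the same way and was counted as returned in 4 of the 19 fits. Insig1, which restrains SREBP, lay above the baseline in the deposited values (8.41 ± 0.07 against 7.97 ± 0.08), and it was counted as returned in 7 of the 19 fits and Hmgcs1 in 16. Of the 9 genes, 3 were returned in both fits, 4 lay on the opposite side without covariates and 2 were still displaced.

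Of 30 genes of the endoplasmic reticulum and the unfolded protein response, 12 were called in α9k1-naive, 10 of them higher. In α9k1-crush 3 of the 12 had returned, 2 of them also without covariates, and 9 were unresolved, beside 211 returned of the 3669 genes called in α9k1-naive. Hspa5, which encodes the chaperone BiP, was at 8.73, 8.97, 8.80 and 8.98 in α9k1-crush and at 8.92, 8.90, 8.90, 8.99 and 8.79 in GFP-naive, beside 9.91 ± 0.14 (n = 6) in α9k1-naive. The step back was -0.81 (limma adjusted p = 0.0246), and the distance left was 0.15 (95% interval -0.30 to 0.59), in all 19 fits. Ddit3, the factor CHOP, was at 6.09 to 6.30 against 6.12 to 6.25 (distance 0.22, interval -0.26 to 0.70) after 7.04 ± 0.12 in α9k1-naive. The 2 groups overlapped for both genes, which were returned without covariates too, Ddit3 in 15 of the 19 fits. Atf4, the factor that is translated when protein synthesis is restrained, was at 8.14 ± 0.21 against 8.51 ± 0.10 and had a fitted distance of -0.16 (interval -0.65 to 0.34), but lay on the opposite side without covariates (adjusted p = 0.0059). None of the list was called in α9k1-crush, beside 3.22% of all genes, and without covariates 12 were higher and 12 lower.

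Of the 19 regeneration factors, 16 had been called in α9k1-naive and 2 returned. Of the 20 immediate early genes, 17 had been called there and 4 returned. Over all genes, 211 of the 3669 called in α9k1-naive returned. Without covariates, 0 of the 2 regeneration factors and 1 of the 4 immediate early genes were also returned. Srf, the serum response factor, which is on neither list, was at 2.25, 2.26, 1.98 and 1.93 against 2.37, 2.34, 2.36, 2.35 and 2.0, after 3.98 ± 0.11 (n = 6) in α9k1-naive (distance -0.21, 95% interval -0.89 to 0.47). Ier3 was at 6.03 ± 0.37 (n = 4) against 6.15 ± 0.12 (n = 5) (distance -0.02, interval -0.57 to 0.52). Both overlapped with the baseline, and Srf met the rule for a return in 15 of the 19 fits and Ier3 in 8. Stat3, which carries gp130 signals to the nucleus, was counted as returned with a distance of 0.43 (interval -0.05 to 0.92), yet its deposited values were 7.47, 7.62, 7.50 and 7.47 in α9k1-crush against 6.48 to 6.84 in GFP-naive, and it was still displaced without covariates (adjusted p = 2.9e-06). Ier2 differed in the other direction, at 7.47 ± 0.29 against 8.19 ± 0.24. For Jun, the AP-1 subunit induced by axotomy, the deposited means were 8.10 ± 0.16 and 8.14 ± 0.08 after 9.47 ± 0.25 in α9k1-naive. Its interval of 0.04 to 1.07 kept it unresolved with covariates, and it was returned without them. Fos (0.94, adjusted p = 0.148) and Egr1 (0.86, adjusted p = 0.252) were unresolved with covariates, whereas without them Fos was returned and Egr1 was still displaced (adjusted p = 0.041).

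Genes that α9k1 alone had lowered returned as well. Pmp22 and Mag, proteins of myelin, had distances left of 0.11 (95% interval -0.66 to 0.89) and 0.15 (interval -0.68 to 0.99) and were returned with and without covariates, but in only 2 and 4 of the 19 leave-one-out fits. Capg, an actin-capping protein, was at 6.59, 6.60, 6.28 and 6.86 against 6.45 to 6.82, after 4.33 ± 0.32 (n = 6) (distance 0.13, interval -0.65 to 0.91). Cadm3, a synaptic adhesion molecule, was at 4.29 ± 0.17 against 4.21 ± 0.10, after 2.13 ± 0.32. The groups overlapped for Capg and Cadm3, which were returned in 16 and 7 of the 19 fits and in the fit without covariates.

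For some returned genes the 2 fits disagreed most. Pou3f1, a POU factor of Schwann cells, was at 3.29, 3.31, 2.82 and 3.43 against 4.25, 4.43, 4.74, 4.72 and 4.41, which is a difference of -1.29 without overlap, whereas its fitted distance was 0.49 (95% interval 0.02 to 0.96). Vamp1, a synaptic vesicle protein of large sensory neurons, was at 8.25, 7.35, 7.86 and 7.75 against 6.78 to 7.28, above the baseline without overlap, with a fitted distance of -0.05 (interval -0.86 to 0.76). The group difference and the library components cannot be told apart for these genes. Acot1, a thioesterase (distance 0.26, interval -0.45 to 0.97), and Rgcc, a regulator of the cell cycle (0.16, interval -0.56 to 0.88), had the largest fitted rises in α9k1-naive among the returned genes (log2FC 2.23 and 1.89). Their deposited means were 7.60 ± 0.17 and 9.69 ± 0.15 in α9k1-naive. In α9k1-crush they were 5.58 ± 0.32 and 7.61 ± 0.37, against 5.51 ± 0.08 and 8.02 ± 0.08 in GFP-naive. Acot1 and Rgcc were returned in 8 and 16 of the 19 fits, Pou3f1 in 14 and Vamp1 in 15.

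**Figure D4:**
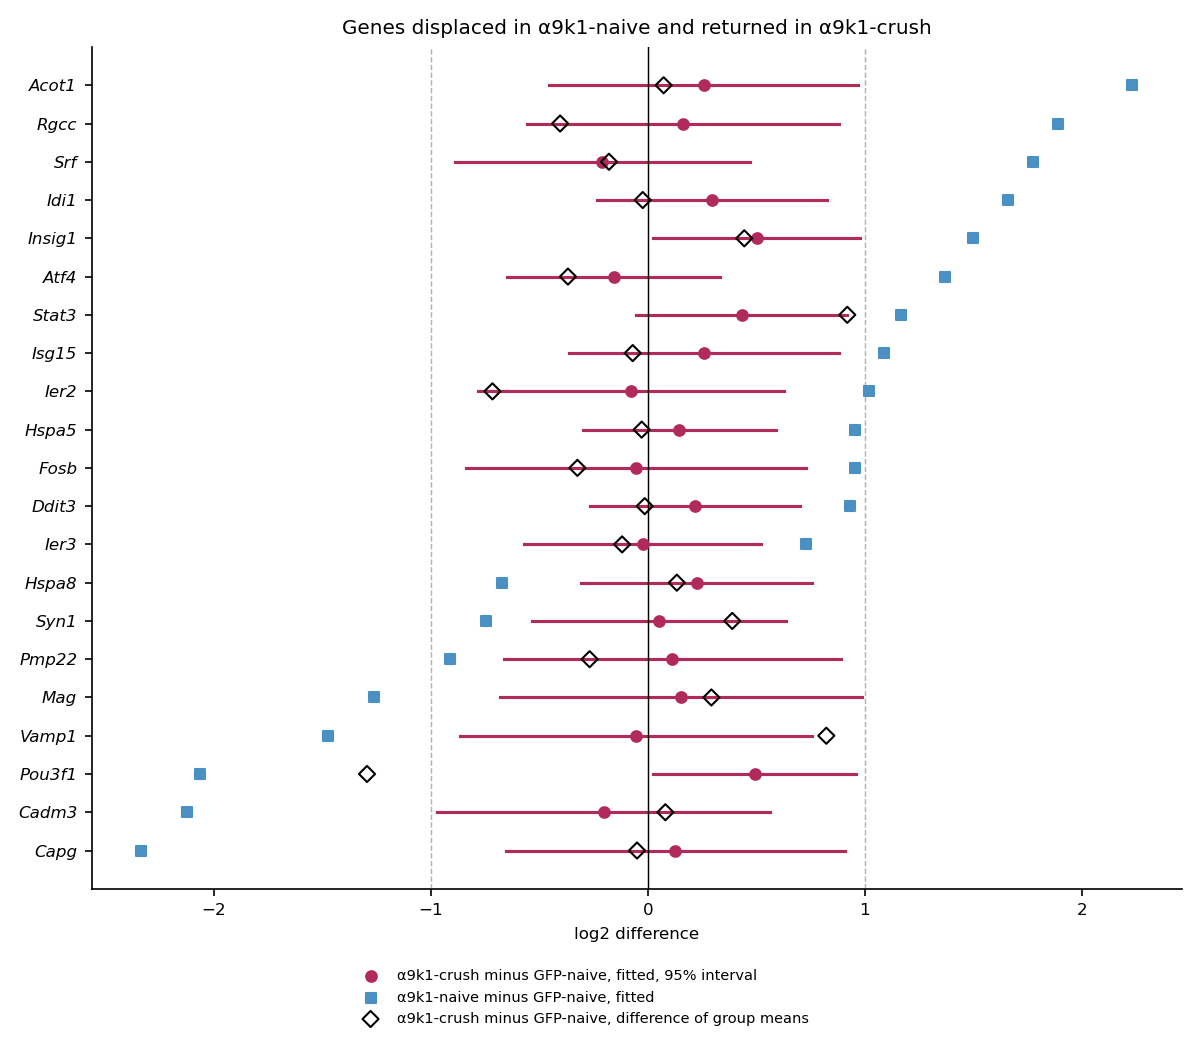
Fitted log2 difference from GFP-naive in α9k1-naive (squares) and in α9k1-crush (filled circles with 95% intervals) for 21 genes counted as returned, with open diamonds for the difference of the deposited group means of α9k1-crush and GFP-naive. Dashed lines mark the limit of 1 log2 unit; the circles lie within it for all genes shown, and the diamonds depart from the circles most for Pou3f1 (diamond at -1.29), Vamp1 (0.82), Ier2 (-0.72), Rgcc (-0.40) and Stat3 (0.92).

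From the side of injury, 6 genes that were lower in GFP-crush returned, 0.0475% of the genes tested, and none of the 6 was returned in all 19 leave-one-out fits. They were the inducible heat shock genes Hspa1a and Hspa1b, the early genes Fosb and Klf4, the cell cycle inhibitor Cdkn2d and Irak4, a kinase below Toll-like receptors. Hspa1b was at 8.08, 8.19, 7.65 and 8.16 in α9k1-crush and at 8.49, 8.49, 8.41, 8.72 and 8.49 in GFP-naive, after 6.47 ± 0.43 (n = 4) in GFP-crush. The step up from GFP-crush was 2.27 (limma adjusted p = 0.0179) and the distance left 0.10 (95% interval -0.70 to 0.90), but the deposited values stayed below the baseline without overlap. Hspa1a, whose coding sequence is almost identical to that of Hspa1b so that reads can be split between them, gave the same picture (distance -0.00, interval -0.78 to 0.77). Klf4 was at 2.40 ± 0.33 (n = 4) against 3.42 ± 0.14 (n = 5) and at 2.43 ± 0.26 (n = 4) in GFP-crush, so in the deposited values it had not moved from the crush level. Only Cdkn2d, at 7.49 ± 0.20 against 7.43 ± 0.10, was returned without covariates.

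A larger set of genes that crush alone had lowered was above the baseline in α9k1-crush. Of the 36 genes on the opposite side of GFP-naive, 35 were lower in GFP-crush and higher in α9k1-crush, and they include 6 of the 24 cytokine genes and 5 of the 19 regeneration factors, beside 0.285% of all genes. On the cytokine and regeneration factor lists, 14 and 11 genes had been called in GFP-crush, beside 23.1% of all genes. Fosl2 was at 5.11, 5.40, 4.88 and 4.86 in α9k1-crush, at 2.65, 3.21, 2.86, 3.24 and 2.68 in GFP-naive and at 2.0 ± 0.20 (n = 4) in GFP-crush (limma adjusted p = 0.0023 for the fall after crush alone). Zfp36 was at 9.74, 10.24, 9.66 and 9.85, against 8.36 to 8.68 and 7.41 ± 0.30. The 3 levels did not overlap between the groups in either gene. Tfpi2, an inhibitor of serine proteases in the matrix, was at 5.57, 5.52, 4.92 and 5.54 against 2.12 to 2.99 in GFP-naive and 0.97 ± 0.66 in GFP-crush (log2FC 2.83, adjusted p = 0.0696, 9 of 19 fits). Gadd45g, a stress gene that restrains growth, was at 9.04 ± 0.31 against 8.64 ± 0.12 with overlapping libraries and was called in 16 of 19 fits, beside an α9k1-naive mean of 11.29 ± 0.22 and a GFP-crush mean of 7.23 ± 0.22 (log2FC 1.19, adjusted p = 0.0515). From α9k1-naive, 24 genes went from higher to lower, with Fabp7 among them, and 4 from lower to higher. The latter include Syt3, a synaptotagmin, at 6.59, 6.22, 6.61 and 6.24 against 5.57 to 5.90 (log2FC 1.30, adjusted p = 0.0372, 17 of 19 fits), and Frmd3, a FERM domain protein, at 5.06 to 5.36 against 4.33 to 4.66 (0.88, adjusted p = 0.0515, 17 of 19 fits).

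None of the genes on the lists for the sensory neuron itself was called in α9k1-crush with covariates, where 3.22% of all genes were called. Without covariates, 9 of the 18 general neuron genes were higher and 1 was lower, beside 27.2% and 32.4% of all genes. In α9k1-naive, 6 of 18 general neuron genes, 8 of 16 proprioceptor and mechanoreceptor genes and 3 of 17 nociceptor genes had been called, beside 29.1% of all genes. All of these were unresolved in α9k1-crush, as were 3161 of the 3669 genes called in α9k1-naive over the whole table. Slc17a7, the vesicular glutamate transporter VGLUT1 of large sensory neurons, was at 8.57, 7.74, 8.14 and 7.58 in α9k1-crush and at 6.68, 6.23, 6.02, 5.96 and 6.01 in GFP-naive. Every α9k1-crush library was above the baseline, and the difference of the means was 1.83. At equal covariates it was 0.72 (standard error 0.45, limma adjusted p = 0.493), although the step up from α9k1-naive, where the mean was 2.84 ± 0.25 (n = 6), was 4.26 (adjusted p = 0.000174). Kcns1, a modulatory potassium channel subunit, was at 6.98, 6.28, 6.63 and 6.34 against 4.41 to 5.39 (log2FC 1.77, adjusted p = 0.197) and had been at 1.67 ± 0.25 in α9k1-naive. Nefh, the heavy neurofilament of myelinated axons, was at 10.59, 9.92, 10.73 and 10.61 against 9.02 to 9.83 (0.47, adjusted p = 0.719). These 3 genes had fallen in α9k1-naive and their deposited values rose past the baseline, without a call in the fit with covariates. Without covariates Slc17a7, Kcns1 and Nefh were called higher (limma adjusted p = 3.1e-06, 1.6e-05 and 0.00036). Pvalb, the marker of proprioceptors, had overlapping groups, at 7.36 to 8.54 against 5.30 to 7.42. Snap25, of the synaptic release machinery, was at 10.74 to 11.18 against 9.49 to 9.96 (0.44, adjusted p = 0.588). Pvalb and Snap25 were called higher without covariates too (limma adjusted p = 0.0016 and 1.1e-05).

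By list, 0 of 16 proprioceptor and mechanoreceptor genes were called, with a median log2FC of 0.44 (11 higher and 2 lower without covariates), and 0 of 17 nociceptor genes, with a median of -0.86 (0 higher and 10 lower without covariates). Trpa1, the irritant receptor of nociceptors, was at 1.11, 3.83, 4.09 and 1.62 in α9k1-crush and at 5.25, 4.36, 4.59, 4.28 and 5.61 in GFP-naive. The α9k1-crush libraries were lower without overlap but spread over nearly 3 log2 units, and the log2FC of -2.80 had a standard error of 1.20 (limma adjusted p = 0.298). Mrgprd, a receptor of non-peptidergic nociceptors, was at 1.03 to 3.48 against 3.70 to 4.55 (-2.60, adjusted p = 0.295). Without covariates both Trpa1 and Mrgprd were called lower (limma adjusted p = 0.0029 and 0.0013). A change in the kinds of neuron in the sort and a change of level within a neuron cannot be told apart in these libraries.

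A total of 41 genes, 12 higher and 29 lower, were called in α9k1-crush and in neither single treatment (0.325% of the genes tested), and 29 of them had libraries without overlap, beside 43% of all genes. Leaving out 1 library moved this count to between 7 (without α9k1-naive replicate 4) and 79 (without GFP-naive replicate 4), by more than 1.5 times in 12 of the 19 fits, and without covariates it was 1453 higher and 1107 lower. Not being called in a single treatment does not show that a gene was unchanged there. Cybb, the catalytic subunit of the phagocyte NADPH oxidase, was at 3.83, 3.84, 3.83 and 3.92 in α9k1-crush and at 1.97, 2.67, 2.85, 3.62 and 2.34 in GFP-naive (log2FC 2.75, standard error 0.61, limma adjusted p = 0.038, 17 of 19 fits). Ano1, a calcium-activated chloride channel, was at 3.70, 2.76, 2.88 and 3.08 against 1.69 to 2.29 (2.66, adjusted p = 0.0687, 10 of 19 fits). Both were apart, whereas Ccnd2, a D-type cyclin, overlapped at 4.65 to 5.33 against 3.72 to 5.09 (1.94, adjusted p = 0.0798, 9 of 19 fits). Rn7s1, the RNA of the signal recognition particle, was lower at 4.64, 4.96, 4.14 and 4.56 against 6.12 to 6.84 (-2.76, adjusted p = 0.0923, 6 of 19 fits), and its copy Rn7s2 holds identical values in the table. Bhlhe41, a repressor of the clock, overlapped at 1.37 to 3.18 against 2.45 to 3.69 (-2.61, adjusted p = 0.0951, 4 of 19 fits). It was not called without covariates, where the difference was -0.72 (limma adjusted p = 0.139).

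Several lists, of which the study discusses ubiquitin, autophagy and transport genes, had no member called with covariates, where 3.22% of all genes were called. Many of their members were called without covariates, where 27.2% of all genes were higher and 32.4% lower. The study drew its ubiquitin and autophagy genes from other comparisons, α9k1-naive versus GFP-naive and α9k1-crush versus GFP-crush, and from co-expression modules. The counts here are therefore not a repeat of its result. Of 54 ubiquitin conjugation genes 0 were called, with a median log2FC of 0.09, against 39 higher and 3 lower without covariates. Of 35 autophagy genes 0 were called (median 0.01, and 22 higher and 6 lower without covariates), and of 32 kinesin, dynein and microtubule genes 0 (median 0.05, and 22 and 3). The same held for 20 synaptic vesicle genes (median -0.00, and 14 and 2), 29 potassium and HCN channels (0.08, and 15 and 1) and 75 subunits of oxidative phosphorylation (0.02, and 13 and 39). Of 25 integrin and focal adhesion genes 2 were higher, and both were transgenes (11 higher and 11 lower without covariates), and of 21 matrix genes only Vcam1 was (3 higher and 15 lower without covariates). A count of 0 in this fit does not show that these genes were at the baseline, as the median standard error of a log2FC was 0.35.

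**Figure D5:**
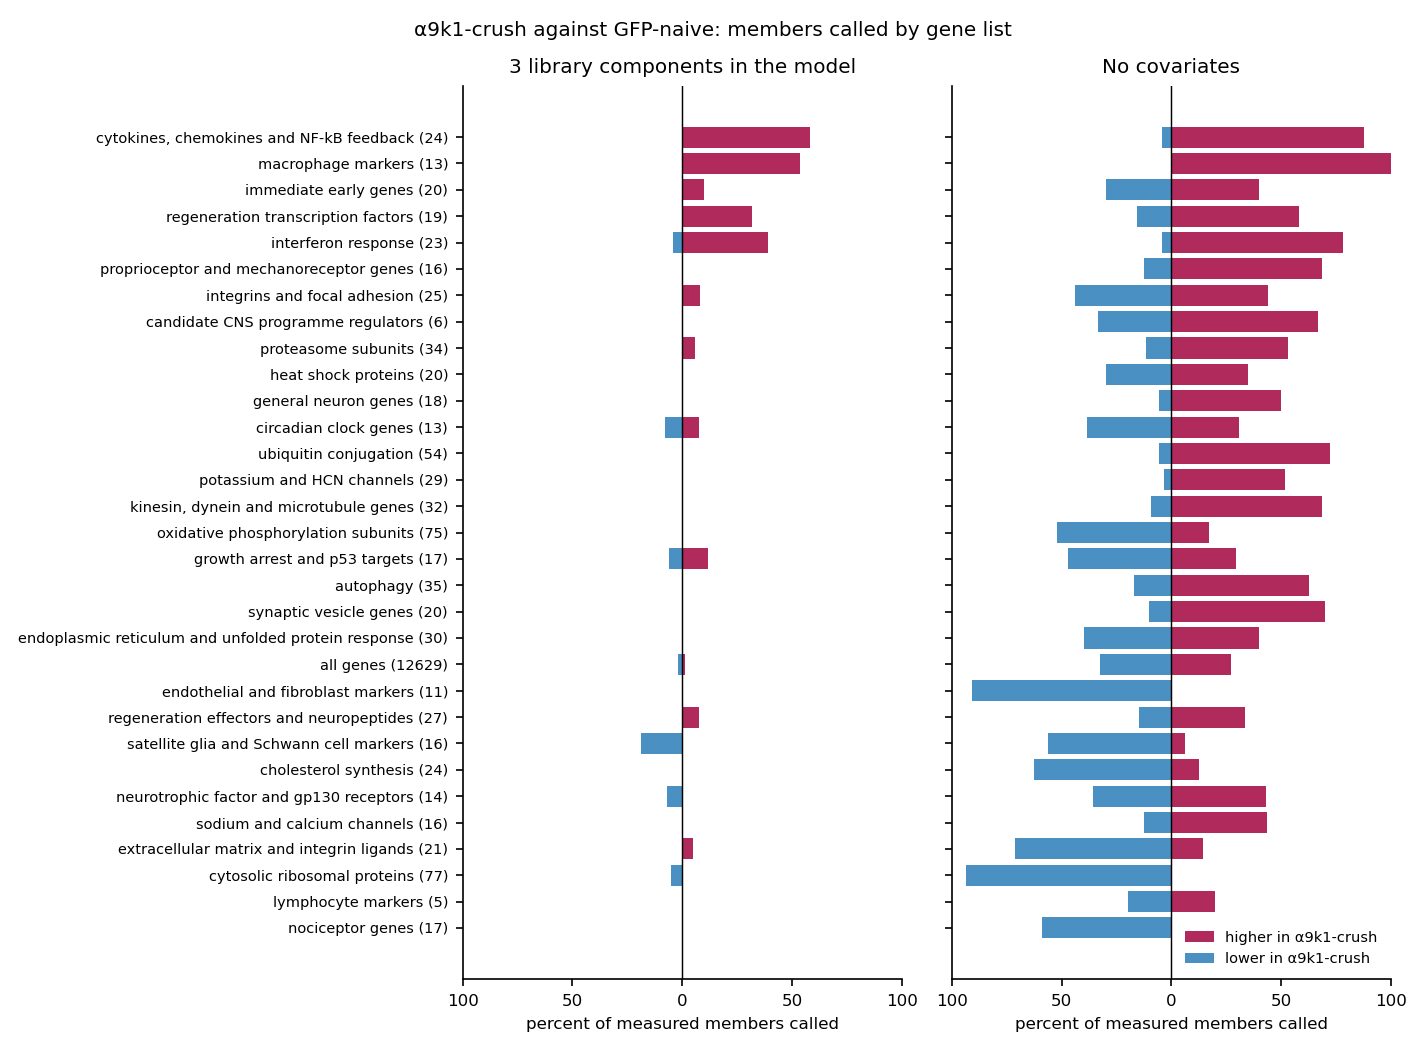
Share of the measured members of each gene list (number in brackets) that were called higher or lower in α9k1-crush than in GFP-naive, with covariates on the left and without on the right, ordered by the median log2FC. Cytokines (14 of 24 higher) and macrophage markers (7 of 13) lead with covariates, and ribosomal proteins (72 of 77 lower) stand out only without them.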

How the data were processed

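RNA-seq libraries of FACS-sorted GFP-positive DRG cells were prepared with a SMART-Seq v4 kit for low input. According to the methods of the study, reads were aligned with STAR to mm10/GRCm38, counted with Salmon and described with Picard. The deposited log2 values are gene counts that the authors filtered for low counts, transformed to log2 with a small pseudocount and then corrected by cqn for the length of genes and for depth. Because these are not counts, the counting error of a single value is unknown, and depth enters only through the spread between replicates. The values carry no gene names, and their order was taken from the gene table of the authors, whose fold changes and p-values were not used. The table of Picard metrics holds counts of reads and bases, fractions, percentages, ratios and other metrics as deposited by the authors. The sample labels and the methods differ in species (mouse or rat), enzyme (papain or trypsin) and RNA kit.

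All 19 libraries entered a single limma fit (limma 3.58.1, R 4.3.3) with the 4 groups and, as covariates, the first 3 principal components of 48 scaled metrics (45.9%, 24.1% and 11.5% of their variance). In the metrics table the values of the duplication metrics appear to be shifted by 1 column name (the percentage column holds whole numbers). They entered as deposited, and the components of the study may differ from these. The batch term of the study's model is not in the tables used here and was left out. Residual degrees of freedom were 12, and a call required a Benjamini-Hochberg p (over the 12629 genes) under 0.1. Group means ± SD are of deposited values. The scripts were tested on simulated data. Lists are described by counts and medians without a test. The members and lists were chosen with earlier results of these data known. Named genes are the transgenes, the 8 highest and 8 lowest called genes without overlap, up to 4 genes of each class and direction (3 for genes called in neither single treatment or on opposite sides), and up to 4 members of each list by the size of the log2FC. Genes named beyond this rule, among them the other cytokines, the promoters shown and the neuron genes, were chosen after their values were seen. The rule also named genes that are given here only within their list's counts, and some are not reported here. Alternatives were no covariates, the first 2 components only, each library left out, quantile normalization, median centring, removal of the 25% of genes with the lowest mean, a replicate block, the 9 libraries alone, and other limits on the distance left.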

Additional observations from a re-analysis of the deposited data

Results flagged for a closer look

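In 15 of 222 groups of 4 or 5 libraries checked for the named genes, 1 library lay far from the others by Dixon's test at 95%, which chance alone does in about 1 group in 20. In α9k1-crush, replicate 2 was high for Csf1r (4.62, the others at most 4.02), Bhlhe40 (6.85, at most 6.35), Stx7 (3.94, at most 3.22) and Atf4 (8.45, at most 8.07), and low for Nefh (9.92, the others at least 10.59). Replicate 3 of this group was low for Txnip (3.70, at least 4.44) and Tfpi2 (4.92, at least 5.52) and high for Igkv1-35 (0.88, at most 0.36), and replicate 4 was low for Rsad2 (4.38, at least 5.16). In GFP-naive, replicate 5 was high for Bcl2a1d (3.21, at most 2.64) and low for Srf (2.0, at least 2.34), replicate 1 was high for Frmd3 (4.66, at most 4.42) and Syn1 (6.94, at most 6.63), replicate 2 was low for Ddit3 (6.12, at least 6.22), and replicate 4 was high for Hspa1b (8.72, at most 8.49).

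The effect of crush differed between the α9k1 and GFP groups (limma interaction, adjusted p under 0.1) for 26 of the 111 genes, beside 278 of all genes (2.2%). The value is the log2 effect of crush with α9k1 minus that with GFP, at equal covariates. It was negative for Cxcl9 (-4.02, adjusted p = 0.00674), Bcl2a1d (-3.57), Cxcl13 (-2.90), Ccl7 (-2.14), Cd74 (-2.01), Mb21d1 (-1.78), Gbp2 (-1.58), Icam1 (-1.50), Srf (-1.53), Psmb8 (-1.34), Fabp7 (-1.23) and Psmb9 (-1.13). It was positive for Kcns1 (4.15, adjusted p = 0.0102), Slc17a7 (3.20), Grin2b (2.53), Nefh (2.0), Syt3 (1.69), Txnip (2.97), Pou3f1 (2.93, adjusted p = 3.11e-05), Cybb (2.60), Capg (2.47), Slc4a1ap (1.70), Hspa1a (1.59), Hspa1b (1.49), Irak4 (1.02) and Hspa8 (1.01).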

How the results depend on the processing

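The counts are given in the order higher, lower, still displaced from α9k1-naive, returned from α9k1-naive, still displaced from GFP-crush, returned from GFP-crush, and called in neither single treatment, which were 173, 234, 269, 211, 231, 6 and 41. Without covariates they were 3429, 4097, 3093, 1248, 1899, 1026 and 2560, and with the first 2 components only, an alternative chosen after seeing the data, 2192, 2815, 1343, 1187, 1439, 185 and 2342. With a replicate block and the covariates they were 32, 10, 37, 16, 15, 0 and 2, and the block took the calls of 70 of 111 named genes. The replicate numbers do not pair the samples: deviations of same-numbered α9k1-crush and GFP-naive libraries correlated across genes at 0.055, -0.097, -0.171 and -0.017. The fit to the 9 libraries alone called 0 higher and 0 lower genes by limma, with 761 genes at an unadjusted p under 0.05, against 1864 with all 19 libraries. Without the limit on the distance left, 716 and 38 genes returned from α9k1-naive and GFP-crush, and 2 and 0 within 0.5 of the baseline. Leaving out each library gave 82 to 204 higher, 52 to 392 lower, 107 to 326 and 57 to 275 still displaced and returned from α9k1-naive, 78 to 361 and 0 to 8 from GFP-crush, and 7 to 79 called in neither. The lowest of each was without α9k1-naive replicate 4. Among named genes, each in the contrast it was named for, the sign changed for Klf4 without covariates (α9k1-crush minus GFP-crush -0.031) and for Plk3 in the 9 libraries alone (-0.10), and, for genes not called with covariates, for Jun without covariates (-0.040) and for Ptprc in 4 fits (-0.21 to -0.025, none called). For α9k1-crush minus GFP-naive, 14 named genes had the other sign without covariates. Of these, 0 were called by limma with covariates and 6 without, which were Pou3f1, Vamp1, Rgcc, Hspa1b, Klf4 and Irak4. Quantile normalization and median centring kept the direction of all 111 and the call of 107 each. The 3161 unresolved genes are not shown to be at the baseline or away from it.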

Other observations

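Genes of the major histocompatibility complex, with symbols that begin with H2-, were looked at after their values were seen. Of 25 measured, 14 were higher in α9k1-crush than in GFP-naive, 0 were lower, and the median log2FC was 1.0, with 18 higher and 1 lower without covariates. All 14 were still displaced from both α9k1-naive and GFP-crush. These genes have near-identical copies, so that reads may be split between them. Of 26 mitochondrially encoded genes, 1 was higher and 5 were lower (median -0.36), against 6 and 13 without covariates. Over all genes the shares were 1.37% higher and 1.85% lower, against 27.2% and 32.4%.

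Single genes outside the lists gave further values. Acod1, which makes itaconate in activated myeloid cells, was at 2.54, 3.55, 3.11 and 2.82 in α9k1-crush and at 0.42 to 0.55 in GFP-naive (log2FC 3.27, limma adjusted p = 0.0653, 11 of 19 leave-one-out fits). Bcl2a1d, an anti-apoptotic member of the Bcl2 family, was at 5.15 ± 0.42 (n = 4) in α9k1-crush against 2.69 ± 0.30 (n = 5) in GFP-naive (2.83, adjusted p = 0.0145), and it has near-identical copies. In α9k1-naive it was at 6.04 ± 0.18 (n = 6) and in GFP-crush at 5.58 ± 0.45 (n = 4). Gdpd2, a phosphodiesterase, was lower at 4.40 ± 0.37 against 6.18 ± 0.22 (-1.64, adjusted p = 0.0707, 10 of 19 fits), as it was in GFP-crush (4.69 ± 0.34, n = 4). Gm15662, an unprocessed pseudogene whose reads may be shared with a parent gene, was lower at 8.86 ± 0.33 against 11.02 ± 0.17 (-2.40, adjusted p = 0.0481, 16 of 19 fits).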
